A study of Homo sapiens with 14 samples.

Results

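The RNA of 40 genes was lost in every KMT2D-KO library of SCC23 cells. These members, as they are called below, were chosen on CPM, the count of a gene scaled to a library total of 1000000 counts. Each had at least 0.5 CPM in all 6 KMT2D-WT libraries, and its lowest KMT2D-WT value was at least 3 times its highest value in the 8 KMT2D-KO libraries. Of 59471 gene names in the tables, 13699 reached 0.5 CPM in all 6 KMT2D-WT libraries, and the 40 members made up 0.292% of these. Since the difference between the genotypes chose the members, it is given below as a description with no test. The comparison of cells with and without glucose was tested. The rule took libraries of both conditions together, so a gene that moves with glucose was less likely to be chosen, and the number of members that respond is no measure of how often such genes respond.

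SCC23 is an established line of head and neck squamous cell carcinoma (HNSCC), and polyadenylated RNA of its KMT2D-WT cells and of 2 KMT2D-KO lines, KO1 and KO2, was sequenced. In the study's methods, cells received a Cas9 and GFP plasmid with a guide against KMT2D or, as control, LacZ, GFP-positive cells were sorted, and growth from single cells is not described, so a line may hold cells with different edits. Cells were kept in high glucose (+Glc, 3 KMT2D-WT and 4 KMT2D-KO libraries) or went without glucose for 6 h (-Glc, 3 and 4 libraries). In each condition, experiment 1 holds 1 library of KMT2D-WT, KO1 and KO2 cells, and experiment 2 holds the KMT2D-WT libraries WT1 and WT2 and 1 library of each line.

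KMT2D is a histone H3 lysine 4 methyltransferase that places monomethylation at enhancers, the distal elements from which cell type genes are switched on. It works in a large complex with partners such as the demethylase KDM6A, and truncating mutations of its gene are frequent in HNSCC. The complex is best known for its part at genes of cell identity and differentiation. The experiment asks which genes depend on KMT2D in these cancer cells, and how far that dependence changes when glucose is withdrawn.

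Total counts per library ranged from 15669154 to 62968057. KMT2D RNA, the check of the labels, was between 247 and 296 CPM in KMT2D-WT libraries. KO1 held 189 and 196 CPM and KO2 held 324 and 375 CPM with glucose. In -Glc cells of experiment 1, KO1 held 17.5 CPM and KO2 164 CPM, and the -Glc libraries labelled KO1 and KO2 of experiment 2 held 135 and 128 CPM. Small edits at a guide's site need not lower RNA, so these levels do not check the edits. Over 32 genes that separate the lines with glucose, both -Glc KMT2D-KO libraries of experiment 2 lay nearer to KO2 in 32 of 32, and the line label of the one called KO1 is in doubt. These libraries differed from each other with a chi-square per gene of 1.71, and the -Glc KMT2D-WT libraries of experiment 2 with 1.65, against 23.0 to 72.7 for other pairs of 1 genotype, experiment and condition. Those other pairs set KO1 against KO2, apart from +Glc WT1 and WT2 of experiment 2 (25.3). The +Glc pairs of experiment 2 were counted with both mates, so the pairs are not all alike. The labels do not say that these close libraries are separate cultures, and p-values here measure only the spread between libraries. Among markers of squamous epithelium, 13 of 14 reached 0.5 CPM in every KMT2D-WT library and 13 of 14 in every KMT2D-KO library, with summed levels of 4341 to 5091 and 3444 to 5049 CPM. Of 6 leukocyte and 5 endothelial markers none did so in either genotype, and of 8 fibroblast and 6 neuronal markers 1 each did, with summed fibroblast levels of 3.54 to 7.55 CPM in KMT2D-WT and 6.53 to 28.6 CPM in KMT2D-KO libraries. In bulk RNA, fewer cells that express a gene and less RNA per cell cannot be told apart.

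The loss ran from complete to partial. Mean KMT2D-KO CPM as a share of mean KMT2D-WT CPM, called the residual level below, had a median of 3.73% over the 40 members and ranged from 0 to 19.1%, while the median over the 13699 genes was 86.9%. It was under 1% in 9 members, under 5% in 25 and under 10% in 33. At least 1 KMT2D-KO library held 0 counts in 24 members. Members were seldom abundant: in CPM per kilobase of exon, the level that can be compared between genes, their median in KMT2D-WT cells was 1.67 against 5.58 for the 13699 genes, and 7 members were above that second value. The genes spanned a median of 31.6 kb, close to 28.7 kb for the 13699 genes, and the longest, DSCAM, spanned 836 kb.

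**Figure D1:**
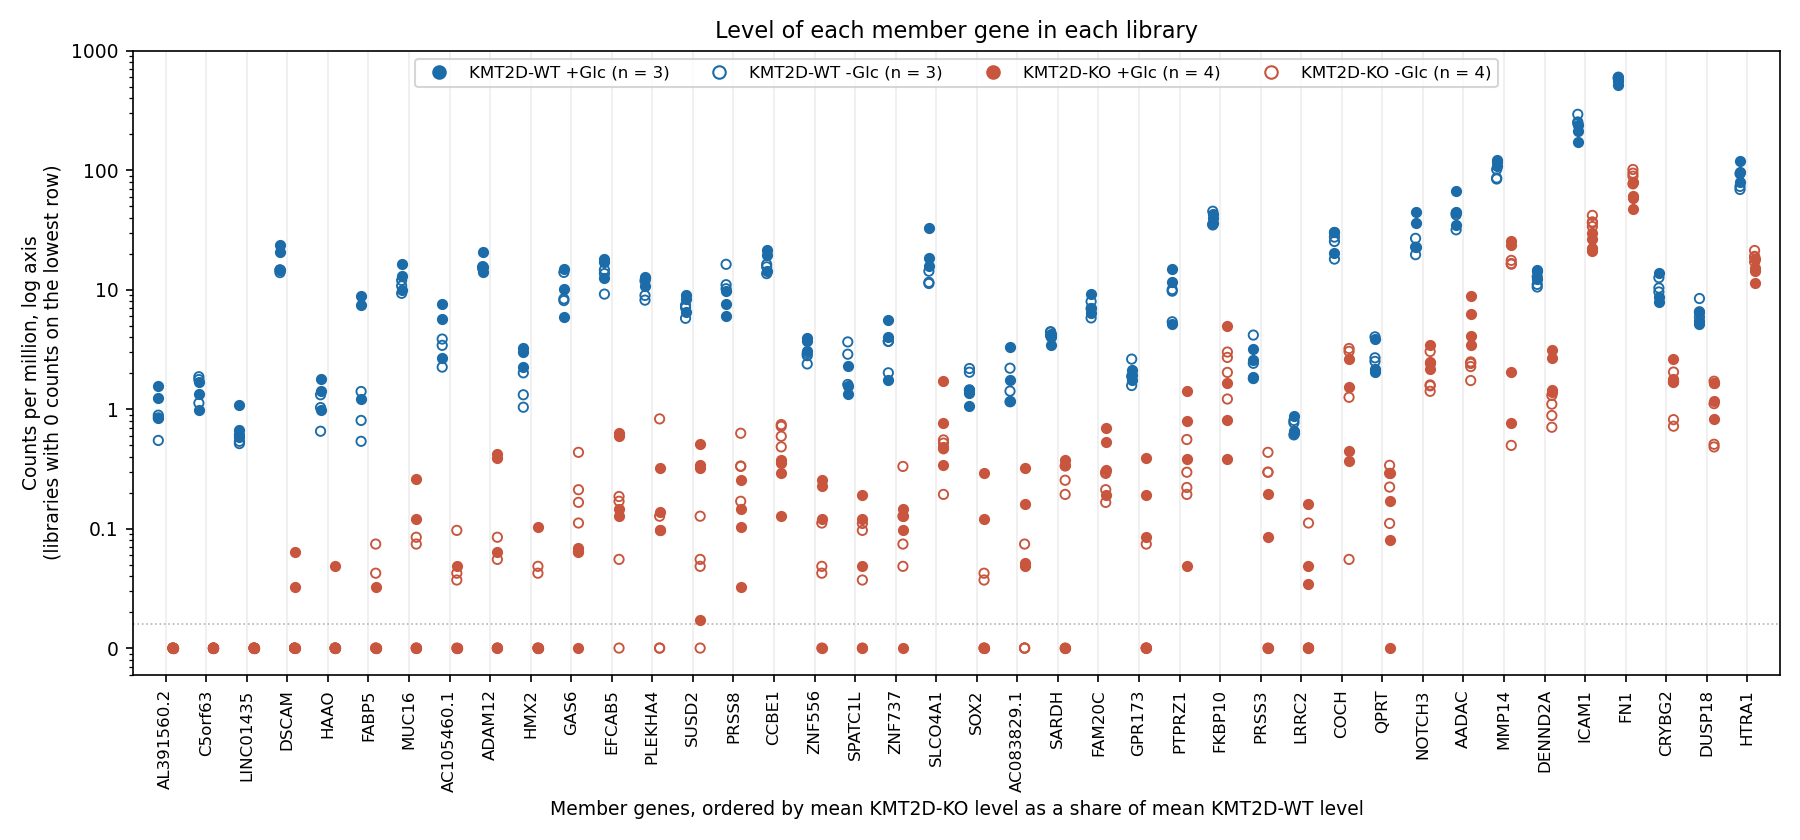
Level of the 40 members in each of the 14 libraries, in CPM on a log axis, with libraries at 0 counts drawn on the lowest row. Blue points are KMT2D-WT and red points KMT2D-KO libraries, filled with glucose and open without it, and genes are ordered by residual level from 0 (left) to 19.1% (HTRA1, right); no red point reaches a blue point of its gene, as the choice of members requires.

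In 3 of 40 members all 8 KMT2D-KO libraries held 0 counts. They were C5orf63, a little described coding gene on chromosome 5, LINC01435, a long noncoding RNA on chromosome 10, and AL391560.2, a clone-named gene on chromosome 13. All were low in KMT2D-WT cells, so the loss could be measured only to a limit. C5orf63 had 332 counts in the 6 KMT2D-WT libraries and was at least 124-fold lower in KMT2D-KO cells, taking 3 counts over the 8 libraries as the limit that 0 allows. By the same limit AL391560.2, with 244 counts, was at least 91.0-fold lower, and LINC01435, with 159 counts, at least 59.3-fold lower. The limits cover counting error only. Of the exonic bases of AL391560.2, 28% overlap another gene, and counting took no account of strand.

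DSCAM, an adhesion receptor of the immunoglobulin superfamily best known from neurons, showed the most complete loss among members of moderate level. It lies on chromosome 21 of GRCh38 from 40010999 to 40847158. The 6 KMT2D-WT libraries held between 13.9 and 23.6 CPM (median 14.6), 4097 counts in all. The 8 KMT2D-KO libraries held 3 counts in all, which gave 0.0638 and 0.0323 CPM in the +Glc KO1 libraries of experiments 1 and 2 and 0 in the 6 others. KMT2D-WT and KMT2D-KO libraries were thus far apart, and KO2 held no read with or without glucose. The ratio of the pooled levels was 1529, with a 95% counting interval from 523 to 7416. The interval takes each count as 1 fragment and is too narrow. Both mates of a pair were counted in the +Glc libraries of experiment 2, which held 2 of the 3 KMT2D-KO counts.

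ADAM12, a membrane metalloprotease with a disintegrin domain, lies on chromosome 10 from 126012381 to 126388455. Its level was between 14.2 and 20.6 CPM (median 15.4) in KMT2D-WT libraries. In KMT2D-KO libraries with glucose it was 0.0638 and 0.42 CPM in KO1 and 0 and 0.393 CPM in KO2 (experiments 1 and 2). Without glucose it was 0.0553 and 0.0847 CPM in the libraries labelled KO1 and 0 in both labelled KO2. The higher residual values were thus both from experiment 2 with glucose, the libraries of greatest depth, and the residual level was 1.31% with glucose and 0.228% without it. In the test of the glucose response between genotypes described below, the log2 difference for ADAM12 was -2.28 (KMT2D-KO minus KMT2D-WT, SE 0.86) and missed the threshold (edgeR adjusted p = 0.149).

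The start regions of DSCAM and ADAM12 differed in base composition although both genes were lost. They are printed with that of ICAM1, the member with the highest level per kilobase in KMT2D-WT cells, to show how unlike the promoters of lost genes were. Each line gives the 250 bases before the RefSeq start of the gene (GRCh38.p14), on the gene's strand, with CpG dinucleotides in capitals. The DSCAM bases are chr21:40847159-40847408 (minus strand), those of ADAM12 chr10:126388478-126388727 (minus strand) and those of ICAM1 chr19:10270870-10271119 (plus strand).
DSCAM: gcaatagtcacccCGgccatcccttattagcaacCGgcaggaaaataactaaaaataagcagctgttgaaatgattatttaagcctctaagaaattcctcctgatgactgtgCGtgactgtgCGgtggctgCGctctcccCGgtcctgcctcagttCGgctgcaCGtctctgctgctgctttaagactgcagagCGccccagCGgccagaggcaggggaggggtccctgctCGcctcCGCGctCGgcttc
ADAM12: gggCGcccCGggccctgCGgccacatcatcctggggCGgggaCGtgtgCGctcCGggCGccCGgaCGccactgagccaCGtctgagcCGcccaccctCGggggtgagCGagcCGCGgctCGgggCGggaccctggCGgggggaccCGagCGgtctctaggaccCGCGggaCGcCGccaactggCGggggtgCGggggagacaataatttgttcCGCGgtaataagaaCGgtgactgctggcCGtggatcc
ICAM1: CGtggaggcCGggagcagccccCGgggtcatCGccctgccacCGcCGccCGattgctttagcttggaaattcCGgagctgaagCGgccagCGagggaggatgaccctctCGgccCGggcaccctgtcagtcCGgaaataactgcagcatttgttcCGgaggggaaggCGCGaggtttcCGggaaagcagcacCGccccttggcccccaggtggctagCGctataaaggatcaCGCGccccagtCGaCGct
DSCAM had 14 CpG dinucleotides and 56.8% G and C, ADAM12 had 31 and 73.6%, and ICAM1 had 23 and 66%. Over the 31 members found in the promoter table, the count of CpG dinucleotides ran from 0 to 39 with a median of 17, and G and C made up a median of 66.4%. The 9891 promoters of genes that reached 0.5 CPM in KMT2D-WT cells had medians of 21 and 65.2%. On either strand, the TATA motif TATAAA was present in 3 of the 31 members' promoters, the AP-1 motif, written TGANTCA with N for any base, in 2 and the TEAD motif GGAATG in 3, and none of these motifs contains another. Of the 9891 promoters 5.18%, 3.73% and 9.52% held these motifs, and of all 27305 tabulated promoters 11.1%, 6.6% and 11.9% did. A match is a description of letters, and enhancers were not examined.

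By roles assigned from general knowledge once the members were known, 11 members were proteins of the cell surface, 8 were secreted or act in the secretory pathway, 5 were metabolic enzymes or a lipid carrier, 4 were transcription factors and 3 act in signalling or trafficking inside the cell. The remaining members were 5 little described coding genes and 4 noncoding or clone-named genes. Median residual levels were 3.62% for the cell surface, 5.75% for secreted proteins, 4.54% for metabolic genes and 3.32% for transcription factors. These groups were not tested, and the share of such roles among all genes was not measured.

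Among genes of secreted proteins, HTRA1 and FN1 had the highest levels per kilobase in KMT2D-WT cells, 39.2 and 33.2 CPM. FN1 encodes fibronectin, the glycoprotein of the extracellular matrix to which integrins bind, and lies on chromosome 2 from 215360440 to 215436073. It ranged from 519 to 601 CPM (median 582) in KMT2D-WT libraries and from 47.5 to 101 CPM (median 78.6) in KMT2D-KO libraries, a residual level of 13.3%. The lowest KMT2D-WT library was 5.12 times the highest KMT2D-KO library. HTRA1, a secreted serine protease that cleaves matrix proteins, kept the most RNA of all members, with 69.0 to 118 CPM (median 86.3) in KMT2D-WT and 11.4 to 21.3 CPM (median 17.6) in KMT2D-KO libraries. The largest loss of the group was in GAS6, the ligand of the TYRO3, AXL and MERTK receptors, from 5.95 to 14.9 CPM (median 9.26) to 0 to 0.435 CPM (median 0.0899). CCBE1, a secreted protein needed for lymphatic vessel growth, had a median of 15.9 CPM in KMT2D-WT and 0.430 CPM in KMT2D-KO libraries and kept 2.75%. FAM20C, the kinase of secreted proteins, kept 4.67%. FKBP10, a prolyl isomerase of the endoplasmic reticulum that helps collagen fold, kept 5.37%, and COCH, which encodes cochlin, kept 6.18%. PRSS3, a trypsin, kept 6.14% and is low, between 1.80 and 4.17 CPM in KMT2D-WT libraries. Of the exonic bases of COCH 32.9% overlap another gene, and of GAS6 7%.

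At the cell surface ICAM1 was the most abundant member per kilobase. ICAM1, the ligand of leukocyte integrins, had between 173 and 294 CPM (median 242) in KMT2D-WT and between 20.9 and 41.9 CPM (median 31.7) in KMT2D-KO libraries. MUC16, the membrane mucin known as CA125, was lost almost entirely, from 9.32 to 16.5 CPM (median 11.4) to 0 to 0.258 CPM, and all 4 KMT2D-KO libraries of experiment 1 had 0 counts. NOTCH3, a Notch receptor, had 19.6 to 44.5 CPM (median 24.8) against 1.41 to 3.45 CPM (median 2.31). SUSD2, PRSS8 (the membrane-anchored protease prostasin), SLCO4A1 (an organic anion transporter), GPR173 (an orphan G protein-coupled receptor) and PTPRZ1 (a receptor tyrosine phosphatase) kept 2.42%, 2.47%, 3.62%, 4.67% and 5.18%. PTPRZ1 was uneven among KMT2D-KO libraries, from 0.0486 CPM in +Glc KO2 of experiment 1 to 1.42 CPM in +Glc KO2 of experiment 2. Of the exonic bases of ICAM1 25.4% overlap another gene, and of PRSS8 12%.

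Of the transcription factors SOX2, a factor of stem and squamous cells, had 1.07 to 2.19 CPM (median 1.45) in KMT2D-WT libraries. In KMT2D-KO libraries it had 0 in all 4 of experiment 1 and 0.0371 to 0.291 CPM in experiment 2. HMX2, a homeobox factor of the inner ear and hypothalamus, kept 1.12%, and the zinc finger genes ZNF556 and ZNF737 kept 3.20% and 3.44%. All 4 factors were low in KMT2D-WT cells, with means between 1.60 and 3.46 CPM, so that a few counts set the residual values.

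The metabolic members included HAAO and QPRT, which act in consecutive steps of the pathway from tryptophan to NAD, the first making quinolinate and the second using it. HAAO had 0.653 to 1.80 CPM (median 1.18) in KMT2D-WT libraries and 1 count in all 8 KMT2D-KO libraries, in +Glc KO2 of experiment 1. QPRT had 2.05 to 4.03 CPM (median 2.60) against 0 to 0.339 CPM (median 0.197). SARDH, the mitochondrial sarcosine dehydrogenase, kept 4.54%. AADAC, an esterase of the endoplasmic reticulum, was the most abundant of them per kilobase (27.0 CPM), had 31.7 to 67.1 CPM (median 43.1) and kept 8.99%. FABP5, a fatty acid carrier of keratinocytes, was a special case: with glucose in experiment 2 it had 7.48 and 8.88 CPM in KMT2D-WT cells, and in the 4 other KMT2D-WT libraries 0.538 to 1.41 CPM. In those first libraries both mates of a pair were counted, and the annotation holds 15 pseudogene copies of FABP5, so its level is uncertain, and the part of either was not tested.

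The other members were EFCAB5 with a residual level of 1.69%, PLEKHA4 with 1.86%, SPATC1L with 3.40%, LRRC2 with 6.14%, DENND2A with 12.6%, CRYBG2 with 15.6% and DUSP18 with 18%. The clone-named genes AC105460.1 and AC083829.1 kept 0.661% and 4.46%. CRYBG2 and DUSP18 were nearest to the limit of the rule, both with a lowest KMT2D-WT value 3.03 times the highest KMT2D-KO value, followed by HTRA1 (3.24), MMP14 (3.33) and DENND2A (3.34). Just outside it were SEMA3F (2.96), OSBP2 (2.95), AL357033.4, SEMA3B (both 2.90) and B3GNT8 (2.89). Of the exonic bases of DUSP18 40.1% overlap other genes, and of EFCAB5 8.6%.

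In lists made by gene name, 12 members stood beside genes of the same list that were no members. Of these members, 4 were in a list of 1359 names in the style of long noncoding RNAs, which is no family. DSCAM was the 1 member among 6 measured adhesion receptors of the DSCAM, L1, contactin and roundabout families, and the other 5 ran from NRCAM, at 5.27% of KMT2D-WT, to ROBO1, at 993%. ADAM12 was 1 of 13 ADAM and ADAMTS genes (family median 64.5%) and MMP14 1 of 13 matrix metalloproteases and inhibitors (median 89.4%). In the first family ADAM8 stood at 16.1% and ADAMTS6 at 22% of KMT2D-WT, and in the second MMP17 at 19.4%, MMP11 at 23.4% and MMP3 at 683%. With the member, 3 of 13 genes of each family were under 33.3%. None of 24 cadherins and protocadherins, 18 collagen chains, 18 integrins or 12 keratins was a member, and their family medians were 68.8%, 94.2%, 77.0% and 192%. Among KMT2D's own relatives, 14 genes of KMT2 methyltransferases and their core partners, none was a member and the median was 78.2%. In all, 10 of 18 lists held no member, one of them the homeobox list, whose name pattern does not take in HMX2.

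Some members kept more RNA in one of the lines than in the other, as did many of all genes. With glucose, where the line labels were taken as given, both KO2 libraries were above both KO1 libraries in 7 of 40 members, and both KO1 libraries were above both KO2 libraries in 9. Of the 13699 genes 11.1% and 18% did so, and neither count is read as a result about the members. The lines, with 2 libraries each, were not tested against each other. MMP14, the membrane metalloprotease that activates MMP2, had the widest gap of those higher in KO2 with counts in every library. It had 108 to 121 CPM in the 3 +Glc KMT2D-WT libraries, 25.4 and 23.8 CPM in KO2 and 0.766 and 2.03 CPM in KO1. For the others of this kind, SARDH and PRSS3 had 0 counts in both KO1 libraries, against 0.340 and 0.376 CPM and 0.195 and 0.0855 CPM in KO2. FKBP10 had 0.383 and 0.807 CPM in KO1 and 4.96 and 1.64 CPM in KO2, and COCH had 0.447 and 0.371 CPM against 2.63 and 1.54 CPM. In the opposite direction AADAC had 6.32 and 8.88 CPM in KO1 and 3.45 and 4.09 CPM in KO2, and SLCO4A1 0.766 and 1.73 CPM against 0.340 and 0.479 CPM. Without glucose MMP14 stood at 0.497 CPM in KO1 but 17.6 CPM in KO2 of experiment 1. The libraries of experiment 2 labelled KO1 and KO2 held 16.6 and 16.3 CPM.

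**Figure D2:**
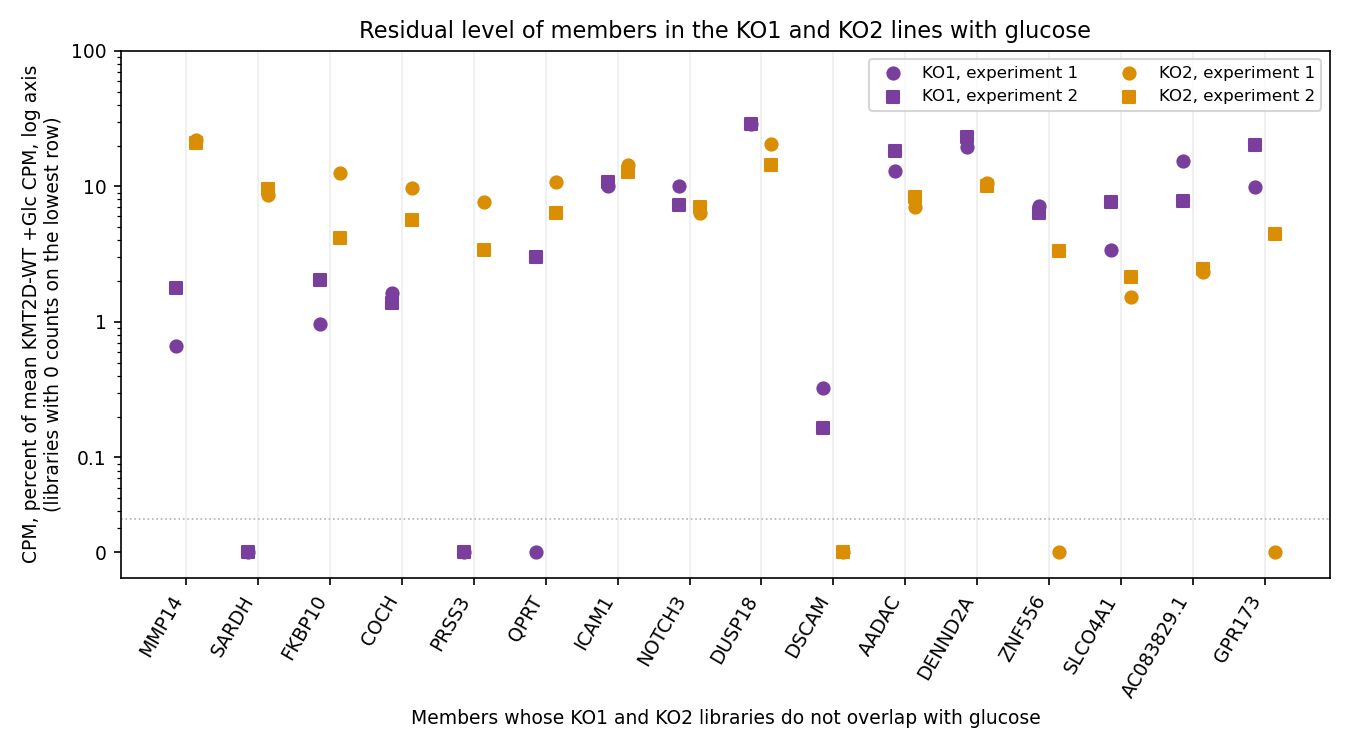
Level in the 4 +Glc KMT2D-KO libraries of the 16 members whose KO1 and KO2 libraries do not overlap, as a percent of the mean of the 3 +Glc KMT2D-WT libraries, on a log axis with 0 counts on the lowest row. Purple points are KO1 and orange points KO2, circles experiment 1 and squares experiment 2; MMP14 sits at 22% and 20.7% in KO2 and at 0.665% and 1.77% in KO1.

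The members lay on 19 chromosomes and were not gathered at a common site. Chromosome 19 held 6, or 0.673% of its genes above 0.5 CPM, and chromosome 10 held 4, or 0.721%. Only HTRA1 and HMX2, 0.633 Mb apart on chromosome 10, had another member within 1 Mb, and ADAM12 lay 3.50 Mb beyond HTRA1. In that stretch, with 1 Mb added on each side, the 31 genes that were no members had a median KMT2D-KO level of 75.0% of KMT2D-WT, and 1 of them was under 50%. Most members had no nearest gene under 50%. Of the 80 nearest genes on either side, the median was 82.4%, against 87.0% for all genes above 0.5 CPM that were no members. Of the 80, 55 kept more than 66.7%, 11 were under 50% and 6 kept less than 33.3%. Under 50% were 9.09% of all genes above 0.5 CPM. For 31 of 40 members neither neighbour was under 50%, and the share of all genes with such neighbours was not computed. FANK1, 2.79 kb from ADAM12, stood at 109%, and MRPL52, 1.52 kb from MMP14, at 119%. Beside DSCAM, BACE2 stood at 441%. Of genes above 0.5 CPM that were no members, 2.25% had a mean KMT2D-KO level under 33.3% of KMT2D-WT. This is a smaller share than the 6 of 80 neighbours, and the difference was not tested.

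The neighbours lost with a member were ZNF558 beside MUC16 (19.0%), AC068647.2 beside AADAC (8.60%), AL357033.4, whose span overlaps SLCO4A1 (8.10%), AC253536.3 beside SUSD2 (28.3%), and AC003072.1 and OSBP2 beside DUSP18 (8.58% and 22.9%). AC003072.1 shares exonic bases with DUSP18, and reads of overlapping genes cannot be told apart without strand.

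EFCAB5, SUSD2 and DUSP18 lay in stretches where most genes were lower. For each gene with at least 5 others within 1 Mb, the median KMT2D-KO level of those others was taken. Over 36 members with such a window it was under 50% for EFCAB5 (39.3%, 27 genes), SUSD2 (40.6%, 23 genes) and DUSP18 (46.1%, 35 genes), and over all genes with a window it was so for 1.82%. Around EFCAB5, on chromosome 17 from 29 to 34 Mb, 31 of 48 genes were under 50% of KMT2D-WT. On chromosome 22 from 18 to 40 Mb, where SUSD2 and DUSP18 lie, 118 of 230 genes were under 50%, with a median of 49.7%, while the 100 genes beyond 40 Mb had a median of 99.8% and 3 under 50%. These bounds were set after the values were seen. With glucose the medians of the stretch on chromosome 22 were 53.4% in KO1 and 51.9% in KO2, and without glucose the KMT2D-KO median was 45.2%. For the stretch on chromosome 17 they were 48.4%, 41.5% and 37.1%. Over all genes above 0.5 CPM, 9.09% were under 50%. EFCAB5 (1.69%) and SUSD2 (2.42%) were far below the genes around them, and DUSP18 (18%) was less so. The copy number of these stretches was not examined here, and its part in the loss was not tested.

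**Figure D3:**
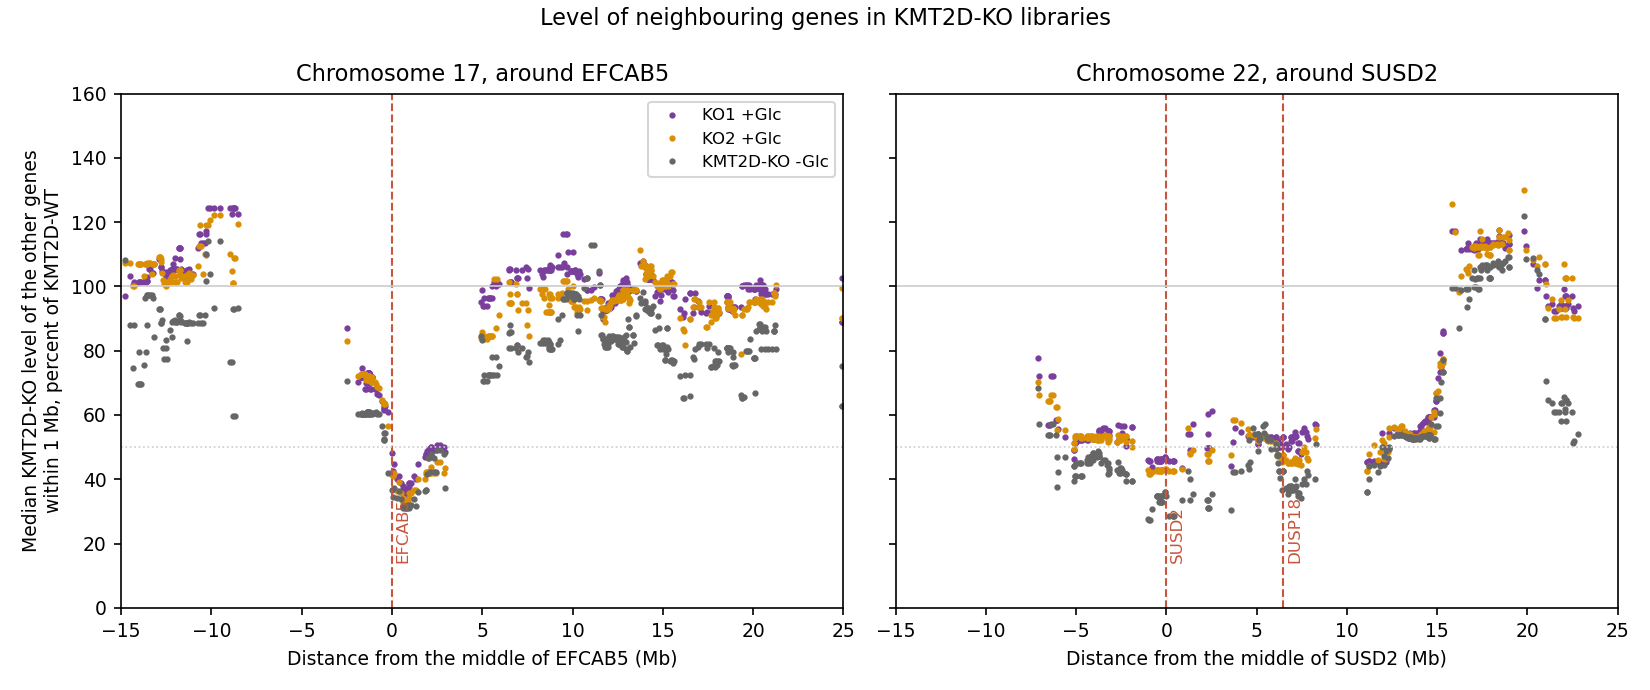
Median KMT2D-KO level of the other genes within 1 Mb of each gene, as a percent of KMT2D-WT, against the distance in Mb from EFCAB5 on chromosome 17 (left) and from SUSD2 on chromosome 22 (right). Purple points are KO1 and orange points KO2 with glucose, grey points all KMT2D-KO libraries without glucose, and dashed lines mark members. At EFCAB5 the purple, orange and grey points lie at 48.19%, 41.25% and 36.75%, and at SUSD2 at 46.3%, 43.12% and 34.85%. The points of both lines drop together around these members.

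In KMT2D-WT cells PRSS8 and ICAM1 were higher and MMP14 was lower without glucose. The comparison asks whether the genes lost in KMT2D-KO cells also answer to glucose. It was tested with edgeR's quasi-likelihood test over 17227 genes, with experiment as covariate and Benjamini-Hochberg adjustment over all genes. Of 40 members, 1 was lower and 2 were higher without glucose, against 7.58% and 7.15% of all genes tested. PRSS8 had 9.70, 7.56 and 5.99 CPM with glucose and 16.3, 11 and 10.2 CPM without it, in the order experiment 1, WT1 and WT2 of experiment 2, and rose by 0.68 on the log2 scale (SE 0.13, edgeR adjusted p = 0.0342). ICAM1 had 238, 211 and 173 CPM with glucose and 294, 254 and 246 CPM without it, and rose by 0.36 (SE 0.080, edgeR adjusted p = 0.0432). MMP14 had 121, 117 and 108 CPM with glucose and 102, 84.4 and 86.2 CPM without it, and fell by 0.35 (SE 0.065, edgeR adjusted p = 0.0320). Groups with and without glucose did not overlap in any of the 3. They did not overlap either in HMX2, ZNF556, SLCO4A1, FN1 and SOX2, which were not called, and the share over all genes was not computed. The replicate block pairs libraries of 1 experiment and number, a pairing that the data do not settle within experiment 2. With it none of the 3 passed (edgeR adjusted p = 0.0868, 0.0878 and 0.0932), nor did any when the close -Glc libraries of experiment 2 were summed (edgeR adjusted p = 0.187, 0.204 and 0.195). Without any 1 of the 4 libraries of experiment 2 the calls were lost too, with edgeR adjusted p from 0.0647 to 0.184 for PRSS8, from 0.0632 to 0.196 for ICAM1 and from 0.0798 to 0.184 for MMP14. In these settings no more than 1 gene was called over all genes tested, so the lost calls are not particular to the members. Other choices gave more calls. With no filter on low counts 6 members were lower and 2 higher, against 2092 and 3468 of 35253 genes. DESeq2 gave 7 and 3, against 2199 and 4014 of 17227 genes. Without the +Glc library of experiment 1 there were 14 and 2, against 4004 and 4740 of 18430 genes. The same member counts came without the -Glc library of experiment 1, against 3998 and 4749 of 18377 genes. At an unadjusted p under 0.05 there were 14 members in the fit with experiment, 8 with the block and 4 with the close libraries summed. Over all genes there were 6976 and 5231 of 17227 in the first 2 fits and 4196 of 20612 in the last.

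The members' values moved unevenly between the experiments. The median log2 fold change without glucose was -0.25 over the members and 0.01 over all genes tested. On the scale of log2(CPM + 0.1), the median of the members was 0.05 in experiment 1, with 18 of 40 lower, and -0.30 in experiment 2, with 28 of 40 lower. For the 13699 genes the medians were -0.02 and 0.02, with 53.5% and 47.5% lower. In experiment 2 the libraries with glucose were counted with both mates and those without glucose as single reads, so condition and library type cannot be told apart there, and experiment 1 has 1 library of each condition. DSCAM had 14.6 CPM with and 14.7 CPM without glucose in experiment 1, and 23.6 and 20.7 against 13.9 and 14.6 CPM in experiment 2. ADAM12 had 14.2 and 15 CPM in experiment 1, and 20.6 and 15.5 against 15.3 and 15.6 CPM in experiment 2. In both genes the values overlapped between conditions, and neither passed the test (edgeR adjusted p = 0.123 and 0.556). In 15 members both experiments gave a lower and in 9 both a higher value without glucose. The share of all genes that did so was not computed.

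**Figure D4:**
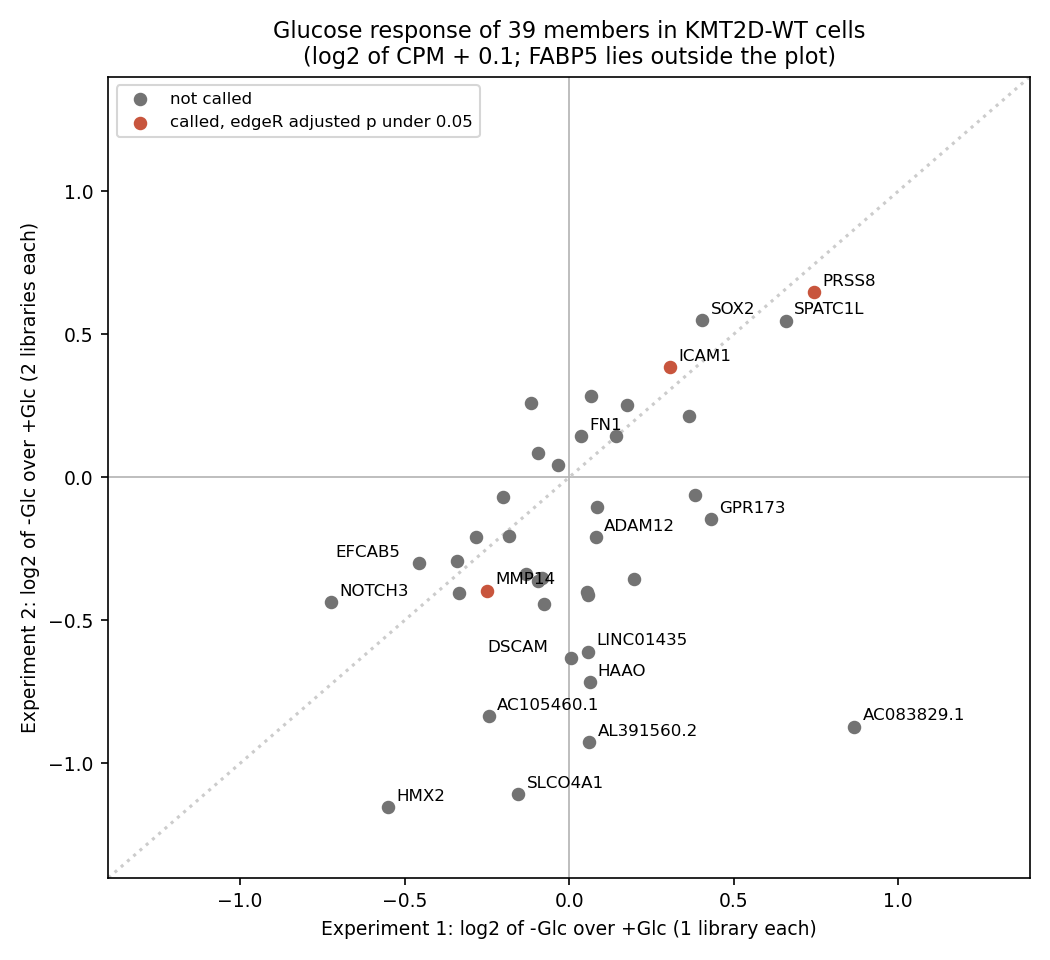
Log2 ratio of the level without to that with glucose in KMT2D-WT cells, on the scale of log2(CPM + 0.1), for experiment 1 (horizontal, 1 library per condition) and experiment 2 (vertical, means of 2 libraries per condition), for 39 members; FABP5, at 0.20 and -3.44, lies outside the frame. Red points passed edgeR's test and the dotted line marks equal ratios. More points lie below 0 in experiment 2 (28 of all 40 members, against 47.5% of the 13699 genes) than in experiment 1 (18, against 53.5%).

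In KMT2D-KO cells FN1 and ICAM1, although far below KMT2D-WT cells, were higher without glucose. After the filter on low counts 13 members remained among 16057 genes tested, and 1 was lower and 4 were higher, against 16% and 14% of all genes tested. FN1 had 80.4, 61.3, 58.2 and 47.5 CPM with glucose and 76.8, 101, 94.5 and 89.2 CPM without it (KO1 and KO2 of experiment 1, then of experiment 2), and rose by 0.77 (SE 0.155, edgeR adjusted p = 0.0110). The 3 libraries other than KO1 of experiment 1 were higher without glucose, and that KO1 library was not. ICAM1 had 20.9, 29.7, 22.5 and 26.3 CPM with glucose and 33.8, 41.9, 36.2 and 36.9 CPM without it, with no overlap, and rose by 0.78 (SE 0.15, edgeR adjusted p = 0.00974). In experiment 2 both mates were counted in the KMT2D-KO libraries with glucose too. Condition and library type cannot be told apart there. Within experiment 1 ICAM1 was higher without glucose in KO1 and in KO2, and FN1 in KO2 but not in KO1. Both genes kept their calls with the replicate block (edgeR adjusted p = 0.0328 and 0.0150). The block pairs the +Glc KO1 library of experiment 2 with the -Glc library whose line label is in doubt, and by the line-separating genes the -Glc group held 1 KO1 and 3 KO2-like libraries. Without that -Glc library both still passed in the fit with experiment (edgeR adjusted p = 0.0333 for FN1 and 0.0352 for ICAM1). With the block over the 3 other pairs, 6 libraries, neither passed (log2 0.72, SE 0.21, edgeR adjusted p = 0.112 for FN1 and 0.75, SE 0.13, edgeR adjusted p = 0.0642 for ICAM1). None of the 12 members tested there was called, against 198 lower and 86 higher of 15965 genes.

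AADAC fell without glucose, from 6.32, 3.45, 8.88 and 4.09 CPM to 2.49, 2.27, 1.74 and 2.41 CPM, by 1.14 on the log2 scale (SE 0.33, edgeR adjusted p = 0.0375). HTRA1 rose from 11.4, 18.2, 15.1 and 14.3 CPM to 21.3, 18.7, 19.0 and 17.1 CPM, by 0.56 (SE 0.17, edgeR adjusted p = 0.0406). CCBE1 rose from 0.128, 0.292, 0.355 and 0.376 CPM to 0.718, 0.483, 0.593 and 0.742 CPM, by 1.32 (SE 0.40, edgeR adjusted p = 0.0410). With the replicate block the adjusted p of these was 0.0778, 0.0674 and 0.101 from edgeR, so none of them passed. The conditions did not overlap in CCBE1 and AADAC and did in HTRA1. They did not overlap either in DENND2A, which was not called, or in GAS6, which was not tested. The share of all genes without overlap was not computed. CCBE1 lost its call without any 1 of the 8 libraries (edgeR adjusted p from 0.0520 to 0.133), HTRA1 without any but +Glc KO2 of experiment 1 (0.0551 to 0.113 by edgeR), and AADAC without either +Glc KO1 library or any of the -Glc libraries other than KO1 of experiment 1 (0.0611 to 0.128 by edgeR).

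Whether the response differed between the genotypes was tested in 1 edgeR fit of all 14 libraries, added after the data were seen. The difference was called for 2 of 40 members, near the 5.57% called of 18678 genes tested. All 40 passed the filter on low counts in this fit, but only 13 passed it in KMT2D-KO cells alone. For the rest the difference rests on low or 0 KMT2D-KO counts and says little. For HTRA1 the log2 fold change without glucose was 0.90 greater in KMT2D-KO than in KMT2D-WT cells (SE 0.20, edgeR adjusted p = 0.0298), and all 3 KMT2D-WT pairs of libraries moved down (from 118, 95.7 and 79.1 to 93.6, 73.2 and 69.0 CPM). For CCBE1 it was 1.58 greater (SE 0.33, edgeR adjusted p = 0.0220), with KMT2D-WT values of 14.4, 19.3 and 21.3 CPM with and 13.6, 16.3 and 15.5 CPM without glucose. With the replicate block neither passed (edgeR adjusted p = 0.0654 for HTRA1 and 0.0765 for CCBE1). In experiment 2 condition and library type cannot be told apart in either genotype. The residual level was lower without glucose in 20 members, lower with glucose in 17 and equal in 3, with medians of 3.34% without and 4.39% with glucose.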

How the data were processed

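The labels gave genotype, line, glucose condition and experiment of 14 RNA-seq libraries of SCC23 cells. The authors mapped reads to GRCh38 with HISAT2 and deposited raw counts per gene name from featureCounts 2.0.3 (Ensembl 102, primary alignments, no strand). In 4 libraries, the +Glc libraries of experiment 2, both mates were counted. Total counts ranged from 15669154 to 62968057, and intervals and limits on counts cover counting error only.

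CPM were computed from the deposited counts with plain totals, in Python. Members were found by the rule in the report, and members and gene lists were chosen with earlier results of these data known. The glucose test within each genotype used edgeR 4.0.16 (R 4.3.3), with TMM scaling, experiment as covariate, the quasi-likelihood test, an adjusted p under 0.05 and low genes removed by filterByExpr at its minimum count of 10. The script was tested on simulated data. Alternatives included DESeq2 1.42.0, RLE, no filter, no covariate, the replicate block and each library left out in turn. Libraries of 1 experiment and number deviated together between the conditions (correlations of 0.14 to 0.21 in KMT2D-WT and 0.14 to 0.31 in KMT2D-KO cells). Within experiment 2 libraries of different number did so too (0.12 and 0.21, and 0.11 and 0.27). Within experiment 2 these correlations thus do not show which libraries belong together. The block takes the numbers as pairs, as 1 alternative, and was printed where it changed a call.

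Named were KMT2D, DSCAM, ADAM12, members of highest level per kilobase, at 0 in all KMT2D-KO libraries, of deepest loss, nearest the limit, called for glucose, in a family list or within 1 Mb of another member. The rest were added for their roles. Positions follow the deposited annotation; 37 of 40 members were found in GENCODE 44 (36 protein-coding, 1 lncRNA), and 31 in the RefSeq promoter table (GRCh38.p14).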

Additional observations from a re-analysis of the deposited data

Results flagged for a closer look

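In groups of 4 libraries, 26 groups of values (the 13 members tested in KMT2D-KO cells, with and without glucose) were searched for a library far from the other 3, and 3 were found. Chance gives this in about 1 of 20 groups of like, independent values. These groups mix KO1 and KO2, and those without glucose hold the close libraries of experiment 2, so that rate need not hold for them. MMP14 had 0.497 CPM in -Glc KO1 of experiment 1 and 16.3 to 17.6 CPM in the 3 others. NOTCH3 had 3.04 CPM in -Glc KO1 of experiment 1 and 1.41 to 1.59 CPM in the 3 others. CRYBG2 had 2.62 CPM in +Glc KO1 of experiment 1 and 1.68 to 1.80 CPM in the 3 others. The MMP14 and NOTCH3 values are from the 1 library without glucose whose KO1 label was not in doubt.

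The response to glucose differed between the genotypes by a test of the difference for CCBE1 (1.58 on the log2 scale, KMT2D-KO minus KMT2D-WT) and HTRA1 (0.90). Of 16 alternatives added after the data were seen, CCBE1 passed in 7 (range 1.41 to 1.72, edgeR adjusted p from 0.0125 to 0.17) and HTRA1 in 5 (range 0.78 to 1.04, edgeR adjusted p from 0.0146 to 0.197). Neither passed without any 1 of the 6 KMT2D-WT libraries, with edgeR adjusted p from 0.0552 to 0.0860 for CCBE1 and from 0.0604 to 0.0975 for HTRA1. Without -Glc KO2 of experiment 2 both were lost (edgeR adjusted p = 0.0576 and 0.0533), and HTRA1 also without +Glc KO2 of experiment 2 (0.0511 by edgeR) or the -Glc library labelled KO1 of experiment 2 (0.0708 by edgeR).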

How the results depend on the processing

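The number of genes found by the rule was 40 and depended on which libraries had to obey it: 80 with the libraries with glucose alone, 331 with those without glucose alone, 116 in experiment 1 alone and 74 in experiment 2 alone, and 107 at a ratio limit of 2. All 40 members were among each of these, as fewer conditions must give. Leaving out each library gave 40 to 48 genes. TMM scaling kept 37 members (without DUSP18, HTRA1 and LINC01435) and RLE scaling 35, a ratio limit of 5 kept 27 and a minimum of 1 CPM kept 34. The members called for glucose in KMT2D-WT cells, 3, became 8 with no filter and 10 with DESeq2. They became 0 with no covariate, with the replicate block and with the close libraries of experiment 2 summed. In those 3 settings no more than 2 of all genes tested were called. With each library left out, 16 members were called without either library of experiment 1. Without any 1 of the 4 libraries of experiment 2, where all genes gave no more than 1 call, 0 members were called. Those called in KMT2D-KO cells, 5, became 2 with no covariate, with the replicate block and with the close libraries summed, 0 with the block and the pair of doubted line label left out (3 at an unadjusted p under 0.05), and ranged from 2 to 5 with each library left out, with 2 or 3 without any 1 library other than +Glc KO2 of experiment 1. FN1 and ICAM1 in KMT2D-KO cells passed in 15 of 16 alternatives, all but the block with the doubted pair left out (0.67 to 0.91 and 0.68 to 0.90 on the log2 scale), AADAC in 7, HTRA1 in 5 and CCBE1, tested in 15, in 3. In KMT2D-WT cells ICAM1, MMP14 and PRSS8 each passed in 6 of 13. No called change turned its direction. Depth limits the members at or near 0 counts, and the filter left 27 members out of the glucose test in KMT2D-KO cells. With no filter 37 were tested, with 1 called lower and 3 higher, against 3228 and 3899 of 36362 genes.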
